A study of Rattus norvegicus with 11 samples.

Results

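The 10 genes described here, Sqstm1, Map1lc3b, Gabarapl1, Becn1, Atg5, Atg7, Atg16l1, Ulk1, Tfeb and Wipi1, encode core parts and regulators of autophagy. They were taken by gene symbol from a table of 30560 rat genes, every symbol was found once, and all 10 were among the 15742 genes with enough reads to be tested. Their RNA was measured by bulk poly(A) RNA sequencing of the striatum of 11 adult male Sprague-Dawley rats at day 3. The 2 Normal rats had neither collagenase nor aspiration. Bleeding was started in the right striatum with collagenase VII-S, a bacterial enzyme that breaks down vessel walls, at 0.2 U in 1.0 μL in the 3 IC (common hemorrhage) rats and at 0.6 U in 3.0 μL in the 3 IS (severe hemorrhage) rats. The 3 IS-HA rats had the IS dose, and at 6 h 150 μL was drawn from the hematoma, about 75% of its volume. The Normal rats had no sham injection, so the needle, the saline and the enzyme cannot be told apart from the bleeding in any comparison with Normal, and there was no aspiration without hemorrhage.

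Autophagy encloses cytoplasm in a double membrane, the autophagosome, which then fuses with a lysosome so that the content is degraded. The ULK1 kinase starts the process, the Beclin 1 lipid kinase complex marks the membrane with PI3P, and WIPI proteins bind that lipid. ATG7, ATG5 and ATG16L1 attach Atg8 proteins of the LC3 and GABARAP subfamilies to the growing membrane, and receptors such as p62 tie cargo to them. In brain, autophagy clears damaged organelles and protein aggregates in neurons and works together with lysosomes in phagocytes that take up debris and red cells. RNA levels do not measure the flow of cargo through this pathway.

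The libraries held between 6701301 and 18817645 counts assigned to genes, with the smallest in IS-HA rat 2 and the next in IS rat 4. The tissue expressed striatal neuron markers in every rat, and the neuron list was lower and the microglia and macrophage list higher in every hemorrhage rat than in both Normal rats. The summed level of 16 neuron markers was 9748 and 10253 TPM (transcript abundance scaled by gene length and to the same sum in every rat) in Normal, and ranged from 4137 to 7583 in IC, from 2046 to 4971 in IS and from 3685 to 5660 in IS-HA. The 12 markers of microglia and macrophages summed to 277 and 391 in Normal, 2432 to 3291 in IC, 4371 to 5733 in IS and 3171 to 5300 in IS-HA. In every IS rat, 15 of the 16 neuron markers were below and 11 of the 12 microglia and macrophage markers above both Normal rats. The 8 oligodendrocyte markers summed to 17157 and 17527 in Normal, 10149.9 to 14649 in IC, 6051 to 10246 in IS and 9261 to 14043 in IS-HA. The 7 astrocyte markers summed to 1304 and 1615 in Normal, 4747 to 7330 in IC, 3029 to 4979 in IS and 3794 to 5240 in IS-HA. Neuron and oligodendrocyte sums were thus lower, and microglia, macrophage and astrocyte sums higher, in every hemorrhage rat than in both Normal rats. Neutrophil markers summed to 4.9 and 5.1 in Normal and to between 84.1 and 862 in the hemorrhage rats. In bulk tissue, fewer cells of a type and less RNA per cell cannot be told apart, and the part of these shifts in the results below was not tested.

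**Figure D1:**
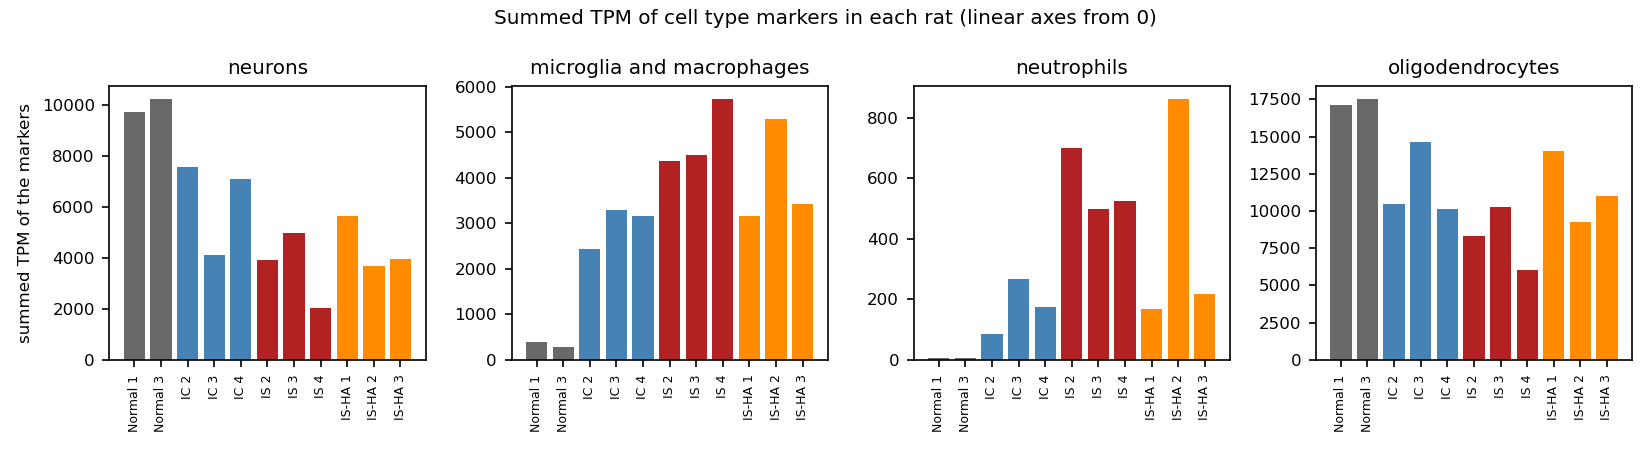
Summed TPM (y axes, linear from 0) of the markers of neurons, microglia and macrophages, neutrophils and oligodendrocytes in each of the 11 rats (x axes), one bar per rat. The neuron sum was highest in the 2 Normal rats and lowest in IS rat 4 (2046), where the microglia and macrophage sum was highest (5733).

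Promoter sequence was available for 9 of the 10 genes from RefSeq (GRCr8), as the 250 bases before and 50 after the gene start, matched by gene identifier. Becn1 was not matched. The E-box CACGTG, the core of the element that TFEB binds, was found in 1 of these 9 promoters, that of Atg5, and in 6.42% of 33469 promoters of the same length. TATAAA on the strand of the gene or the opposite strand was found in those of Sqstm1 and Gabarapl1 and in 14.2% of all promoters. The cyclic AMP element TGACGTCA and the core of the antioxidant response element (TGA and GCA with 4 bases between them) were each found in 1 of the 9, again Atg5, and in 1.83% and 12.7% of all promoters. Both strands were searched for each motif, and none of the matches overlapped. The stretches are shown because they belong to the gene with the clearest rise after severe hemorrhage (Atg5), the most abundant Atg8 gene of the Normal striatum (Gabarapl1) and the cargo receptor whose level was called in no comparison (Sqstm1). Capitals mark the motif, and each is written 5′ to 3′ on the strand of the gene.
Atg5, chr20:49380800-49380834, plus strand, CACGTG starting 19 bases before the gene start: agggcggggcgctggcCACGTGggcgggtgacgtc
Gabarapl1, chr4:164666141-164666178, plus strand, TATAAA starting 175 bases before the gene start: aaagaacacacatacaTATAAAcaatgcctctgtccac
Sqstm1, chr10:35037759-35037796, minus strand, TATAAA starting 30 bases before the gene start: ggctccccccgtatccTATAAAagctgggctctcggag
A match of letters is a description of the window and not a measured binding site. No promoter activity was measured in these rats.

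Severe hemorrhage was first set against Normal. Of the 10 genes, 3 were higher (Atg5, Tfeb and Atg7), 2 were lower (Gabarapl1 and Ulk1) and 5 were not called at an adjusted p under 0.05 in edgeR's quasi-likelihood test, adjusted over all genes by Benjamini-Hochberg. Over all genes tested, 24.8% were called higher and 24.2% lower in the same comparison, so the 3 higher and 2 lower genes were counts near the background of this strong contrast. The median log2 fold change of the 10 genes was -0.10, beside 0.02 over all genes tested. At an unadjusted p under 0.05 a sixth member, Map1lc3b, was counted. The called genes moved in both directions and belonged to different steps of the pathway. The fit without Normal rat 1, without Normal rat 3 or without IS rat 4 each called 1 of the 10 instead of 5, and that gene was Atg5 each time. Leaving out IS rat 2 left 3 calls. In those 4 fits 35.1%, 24.6%, 37.7% and 45.8% of all genes tested were called in either direction.

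**Figure D2:**
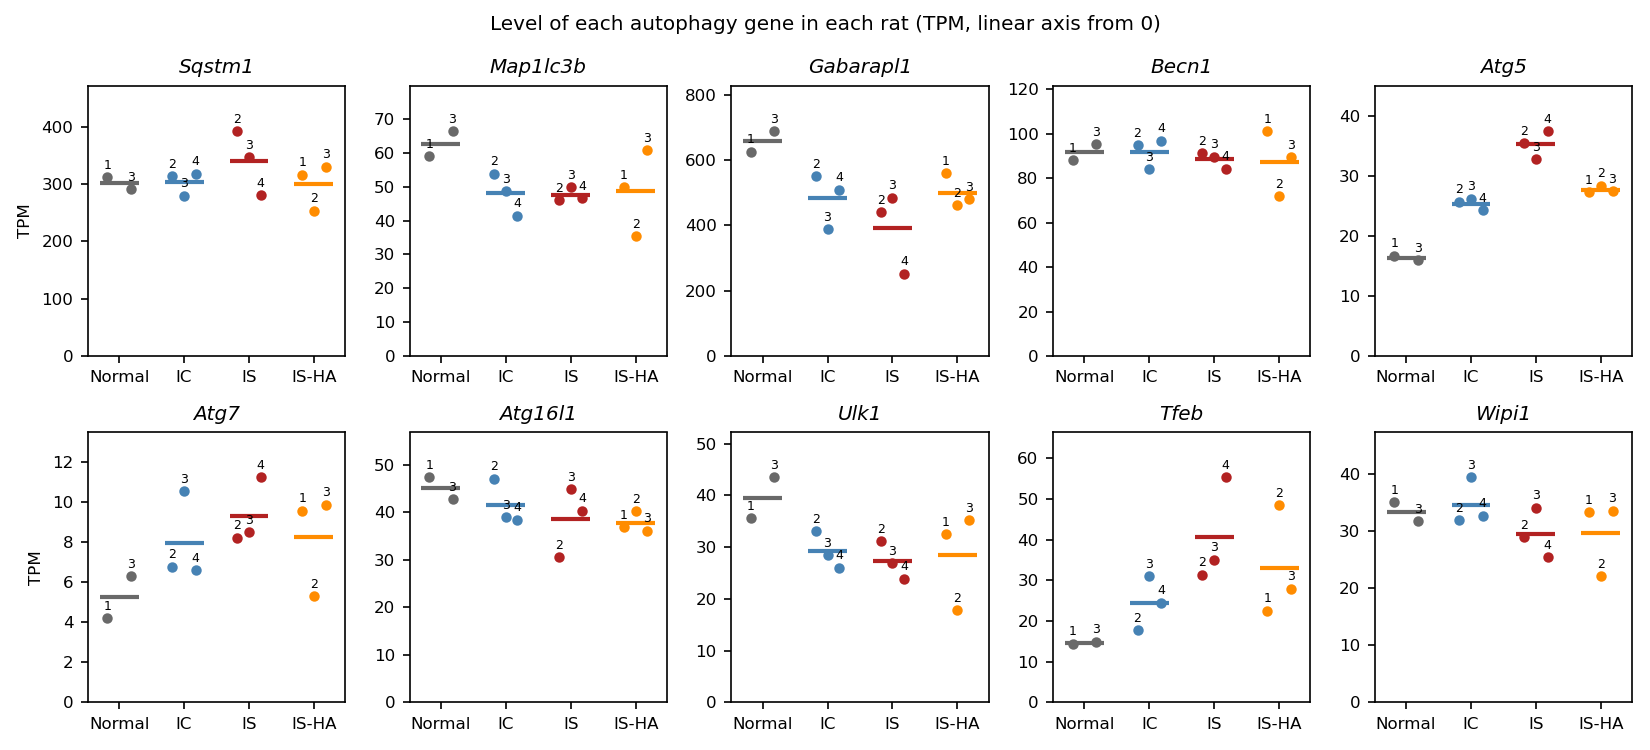
Level of each of the 10 genes in TPM (y axes, linear from 0) by group (x axes), with one point per rat, the rat's number beside it, and a line at the group mean. For Atg5 the 4 groups did not overlap in TPM, though IS-HA overlapped IC and IS in counts scaled by library size. Its TPM went from 15.9 and 16.7 in Normal to 32.8 to 37.4 in IS. Becn1 lay between 72.0 and 101 in all 11 rats with every group overlapping.

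Among the genes that start autophagy, Ulk1, which encodes the initiating kinase, stood at 35.6 and 43.5 TPM in the Normal rats. It stood at 33.1, 28.4 and 26.0 TPM in IC rats 2, 3 and 4 and at 31.2, 26.9 and 23.9 TPM in IS rats 2, 3 and 4. The IS-HA rats 1, 2 and 3 stood at 32.6, 17.8 and 35.2 TPM. All 9 hemorrhage rats were thus below both Normal rats, IS-HA rat 3 only just, and the 3 hemorrhage groups overlapped. Ulk1 fell 1.43-fold in IS (log2 fold change -0.52 ± 0.19 SE, adjusted p = 0.0395). The estimates against Normal were nearly the same in IC (-0.49 ± 0.19, adjusted p = 0.0917) and IS-HA (-0.51 ± 0.19, adjusted p = 0.0578), neither of them called. The Ulk1 call in IS was near the threshold: 9 of 20 alternative settings kept it, with log2 fold changes from -0.60 to -0.43 and adjusted p from 0.00581 to 0.294.

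Becn1, which encodes Beclin 1 of the lipid kinase complex, was the steadiest of the 10 genes. Its level was 88.1 and 95.4 TPM in Normal, 94.8, 84.1 and 96.9 in IC, 91.2, 89.8 and 84.4 in IS, and 101, 72.0 and 89.4 in IS-HA. Its log2 fold change in IS was -0.04 ± 0.16 SE (adjusted p = 0.862). Wipi1, which encodes a protein that binds PI3P on the forming membrane, stood at 35.1 and 31.8 TPM in Normal, 31.9, 39.5 and 32.8 in IC, 29.0, 34.2 and 25.4 in IS, and 33.4, 22.2 and 33.6 in IS-HA. Its 4 groups overlapped, and its estimate in IS was -0.17 ± 0.17 SE (adjusted p = 0.437). For neither gene was a difference detected, and changes larger than the standard errors, in either direction, are not excluded.

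Of the conjugation genes, Atg5 and Atg7 rose after severe hemorrhage and Atg16l1 was not called. Atg5, whose product joins ATG12 and with ATG16L1 directs the lipidation of Atg8 proteins, was at 16.7 and 15.9 TPM in Normal, 25.7, 26.2 and 24.2 in IC, 35.4, 32.8 and 37.4 in IS, and 27.2, 28.3 and 27.5 in IS-HA. In TPM the groups were ordered Normal, IC, IS-HA and IS, with no rat of one group reaching the next. In counts scaled by the normalized library size (CPM) the IS-HA rats stood at 27.5, 36.9 and 27.5 and overlapped both IC and IS. IC rat 4 was at 28.0 and IS rats 2 and 3 were at 36.8, so that order held in TPM only. Atg5 rose 2.18-fold in IS (log2 fold change 1.12 ± 0.20 SE, adjusted p = 0.00118) and 1.69-fold in IS-HA (0.76 ± 0.19, adjusted p = 0.0145), and its estimate in IC was 0.58 ± 0.19 (adjusted p = 0.0608). All 20 alternative settings called it in IS, with log2 fold changes from 0.98 to 1.23. The call in IS-HA was lost without Normal rat 1 (adjusted p = 0.0533) and without Normal rat 3 (adjusted p = 0.139).

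Atg7 encodes the E1-like enzyme that activates both ATG12 and the Atg8 proteins, and it had the lowest level of the 10 genes. It stood at 4.22 and 6.30 TPM in Normal, 6.78, 10.5 and 6.59 in IC, 8.22, 8.50 and 11.2 in IS, and 9.57, 5.31 and 9.87 in IS-HA, from 79 to 379 counts a rat. The IS and IC rats were above both Normal rats, and IS-HA rat 2 was between them. Atg7 rose 1.81-fold in IS (log2 fold change 0.86 ± 0.29 SE, adjusted p = 0.0299), a call lost without either Normal rat or without IS rat 4 (highest adjusted p over all alternatives 0.192). Atg16l1, which encodes the partner that places the complex on the membrane, stood at 47.4 and 42.7 TPM in Normal, 47.1, 39.0 and 38.5 in IC, 30.6, 44.9 and 40.3 in IS, and 36.8, 40.3 and 36.1 in IS-HA. Its estimate in IS was -0.20 ± 0.24 SE (adjusted p = 0.498). The ratio of Atg5 to Atg16l1 in TPM was 0.363 ± 0.0140 (SD, n = 2) in Normal, 0.615 ± 0.0643 (n = 3) in IC, 0.938 ± 0.214 (n = 3) in IS and 0.734 ± 0.0289 (n = 3) in IS-HA.

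The Atg8 genes among the 10 are Gabarapl1 and Map1lc3b. Gabarapl1 encodes a GABARAP-type protein and was the most abundant of the 10 genes, at 626 and 689 TPM in Normal, 552, 388 and 509 in IC, 441, 485 and 252 in IS, and 560, 461 and 481 in IS-HA. All 9 hemorrhage rats were below both Normal rats, and IS rat 4 was far below its group. Gabarapl1 fell 1.67-fold in IS (log2 fold change -0.74 ± 0.26 SE, adjusted p = 0.0349), a call lost without Normal rat 1, Normal rat 3, IS rat 2 or IS rat 4 (highest adjusted p over all alternatives 0.182). Map1lc3b, which encodes LC3B, the protein most used to mark autophagosomes, stood at 59.0 and 66.5 TPM in Normal, 53.8, 48.8 and 41.5 in IC, 46.1, 49.9 and 46.5 in IS, and 49.9, 35.4 and 60.8 in IS-HA. Only IS-HA rat 3 reached the Normal range. Its estimate in IS was -0.38 ± 0.17 SE (adjusted p = 0.0776) and missed the threshold in edgeR's test. The table also lists close relatives of both, Map1lc3b2 with 6 to 51 counts and Gabarapl3 with 59 to 139 counts a rat, and how reads shared with a relative were counted is not given in the sources used here.

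Sqstm1 encodes p62, the cargo receptor that binds both ubiquitin and LC3. It stood at 311 and 291 TPM in Normal, 313, 280 and 318 in IC, 392, 346 and 280 in IS, and 316, 253 and 330 in IS-HA. IS rats 2 and 3 had the highest levels of the 11 rats, and IS rat 4 lay below both Normal rats. The groups overlapped, and the estimate in IS was 0.18 ± 0.18 SE (adjusted p = 0.433). None of the 20 alternative settings called Sqstm1 in any comparison with Normal.

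Tfeb encodes the transcription factor that drives lysosomal and autophagy genes, and it had the largest log2 fold change of the 10 in IS against Normal. It stood at 14.4 and 15.0 TPM in Normal, 17.7, 31.0 and 24.5 in IC, 31.4, 35.0 and 55.2 in IS, and 22.5, 48.5 and 27.9 in IS-HA. Every hemorrhage rat was above both Normal rats, and every IS rat was above every IC rat. The highest levels were in IS rat 4 and IS-HA rat 2, the 2 smallest libraries. Tfeb rose 2.82-fold in IS (log2 fold change 1.50 ± 0.45 SE, adjusted p = 0.0186). The call was lost without Normal rat 1 (adjusted p = 0.0795), Normal rat 3 or IS rat 4 (0.0629), and over all alternatives the log2 fold change ranged from 0.94 to 1.69 and the highest adjusted p was 0.245.

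**Figure D3:**
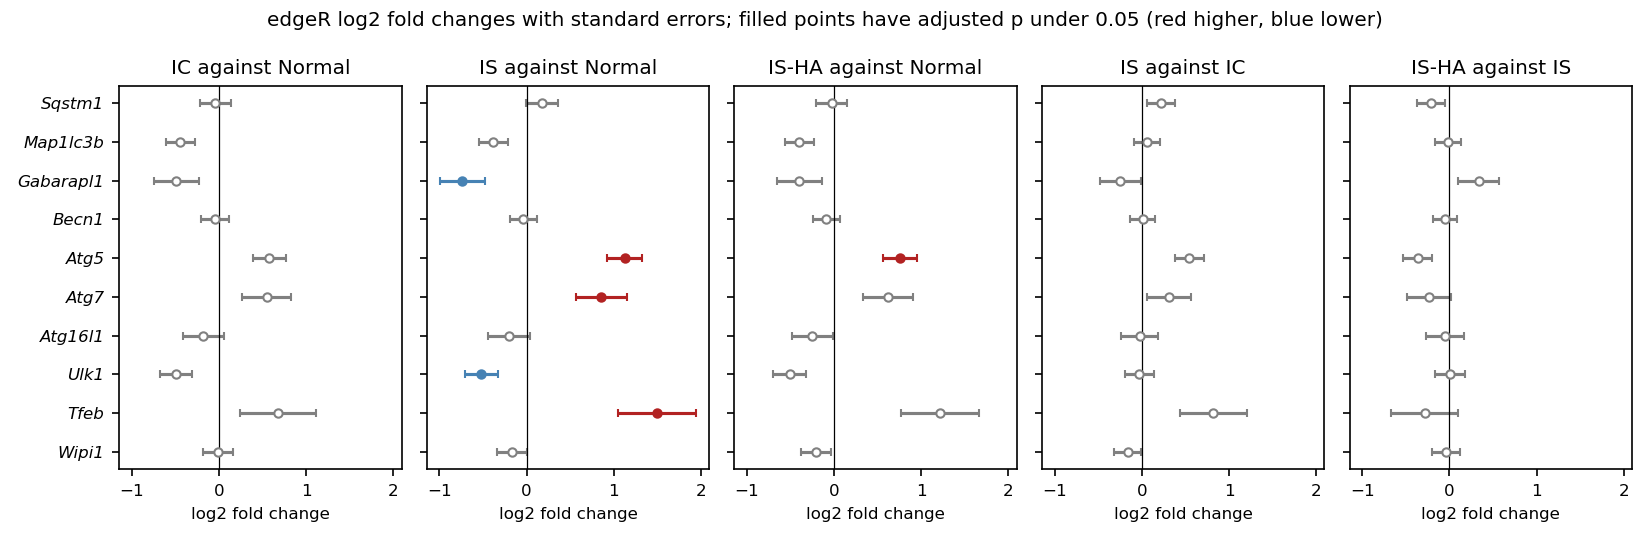
Log2 fold changes (x axes) of the 10 genes with standard errors (bars) in each of the 5 comparisons, one panel each, from edgeR's fit over the 4 groups. Filled points had an adjusted p under 0.05: Atg5, Tfeb and Atg7 higher and Gabarapl1 and Ulk1 lower in IS against Normal, and Atg5 higher in IS-HA against Normal.

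In common hemorrhage against Normal, edgeR's test called 0 of the 10 genes, where 13.0% of all genes tested were called higher and 4.64% lower. At an unadjusted p under 0.05 there were 3 (Atg5, Map1lc3b and Ulk1). DESeq2's Wald test called 3, limma's voom 3 and limma on log2(TPM + 1) 1. These tools called 25.4%, 39.5% and 14.9% of all genes in either direction. Here and below, voom was run with a quality weight per rat. The fit without IS-HA rat 2, a rat of neither group that enters the shared estimate of spread, also called 3, with 33.3% of all genes called. Estimates in IC were 0.55 ± 0.29 SE for Atg7 (adjusted p = 0.197), 0.68 ± 0.44 for Tfeb (0.297), -0.44 ± 0.17 for Map1lc3b (0.0868) and -0.49 ± 0.26 for Gabarapl1 (0.202). In severe hemorrhage with aspiration against Normal, 1 of the 10 genes was called, Atg5, with 19.5% of all genes called higher and 12.1% lower. Tfeb there had an estimate of 1.21 ± 0.45 SE (adjusted p = 0.0589), Atg7 0.62 ± 0.29 (0.118), Map1lc3b -0.40 ± 0.17 (0.0874) and Gabarapl1 -0.40 ± 0.26 (0.247). The 3 comparisons share the 2 Normal rats, so a high or low value in one of those rats enters all of them.

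The comparison of IS with IC asked whether the genes differed between severe and common hemorrhage. The enzyme dose and the injected volume (0.6 U in 3.0 μL against 0.2 U in 1.0 μL) differed along with the bleeding and cannot be told apart from it. Of the 10 genes, 0 were called by edgeR's test, as were 0% of all genes tested in either direction. These counts turned on the tool and on 1 rat of neither group. DESeq2's Wald test and limma's voom, which weights each rat, each called 1, Atg5. They called 6.19% and 12% of all genes in either direction. Limma on log2(TPM + 1) called 0 of the 10 and 0% of all genes. The fit without IS-HA rat 2 also called 1, Atg5, with 14.1% of all genes called, so 1 of 10 was near the background in these 3 fits. Atg5 had an estimate of 0.55 ± 0.17 SE (unadjusted p = 0.00815, adjusted p = 0.156 by edgeR), the only gene of the 10 with an unadjusted p under 0.05. Tfeb had 0.82 ± 0.39 (adjusted p = 0.234), Gabarapl1 -0.25 ± 0.23 (0.515) and Sqstm1 0.22 ± 0.16 (0.414). Every IS rat stood above every IC rat in CPM (counts scaled by the normalized library size) for 2 of the 10 genes, Atg5 and Tfeb, and below for 0. The same was true of 19.2% and 18.7% of all genes tested, so 2 of 10 was near the background.

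The comparison of IS-HA with IS asked what differed after part of the hematoma was drawn off, and it shares the 3 IS rats with the comparison before. EdgeR's test called 0 of the 10 genes, with 0.00635% of all genes tested called higher and 0% lower, and 0 had an unadjusted p under 0.05. DESeq2's Wald test, limma's voom and limma on log2(TPM + 1) also called 0, as did every fit that left out 1 rat. The share of all genes called in either direction was 0.451%, 2.73% and 0% with these tools and 4.37% without IS-HA rat 2, so the near-empty background of edgeR's test also turned on the tool and that rat. Atg5 had an estimate of -0.37 ± 0.17 SE (unadjusted p = 0.0546, adjusted p = 0.561). Gabarapl1 had 0.34 ± 0.23 (adjusted p = 0.650), and Tfeb had -0.28 ± 0.38 (adjusted p = 0.836). The IS-HA rats were all below the IS rats for Atg5 in TPM, but in CPM IS-HA rat 2, at 36.9, reached IS rat 2 at 36.8 and IS rat 3 at 36.8. In CPM 0 of the 10 genes were higher and 1, Sqstm1, was lower in every IS-HA rat than in every IS rat, beside 4.96% and 5.42% of all genes tested. Sqstm1 had an estimate of -0.21 ± 0.16 (adjusted p = 0.678). The summed microglia and macrophage markers of IS-HA rats 1 and 3 (3171 and 3434 TPM) were below those of every IS rat, and that of IS-HA rat 2 (5300 TPM) was within the IS range.

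The rest of the pathway was read from lists of 91 further genes, of which 88 were tested. Ncoa4 and Mcoln1 had too few counts, and Retreg1 had no entry under that symbol. In IS against Normal 21 of the 88 were higher and 24 lower, beside the 24.8% and 24.2% of all genes given above, with a median log2 fold change of -0.12. In IC 6 were higher and 2 lower, and in IS-HA 14 were higher and 11 lower, each against Normal, beside 13.0% and 4.64% of all genes in IC and 19.5% and 12.1% in IS-HA. In IS against IC and in IS-HA against IS 0 of the 88 were called by edgeR's test, with 15 and 1 at an unadjusted p under 0.05. DESeq2's Wald test called 4 and 0 there, beside 6.19% and 0.451% of all genes in either direction. Limma's voom called 7 and 1, beside 12% and 2.73%. The count in IS against Normal was 24 without Normal rat 1, 14 without Normal rat 3 and 29 without IS rat 4, instead of 45. In those fits 35.1%, 24.6% and 37.7% of all genes tested were called in either direction. The counts by step that follow are small and are of IS against Normal unless another comparison is named. Each of IS against Normal is to be read beside the same 24.8% of all genes higher and 24.2% lower.

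**Figure D4:**
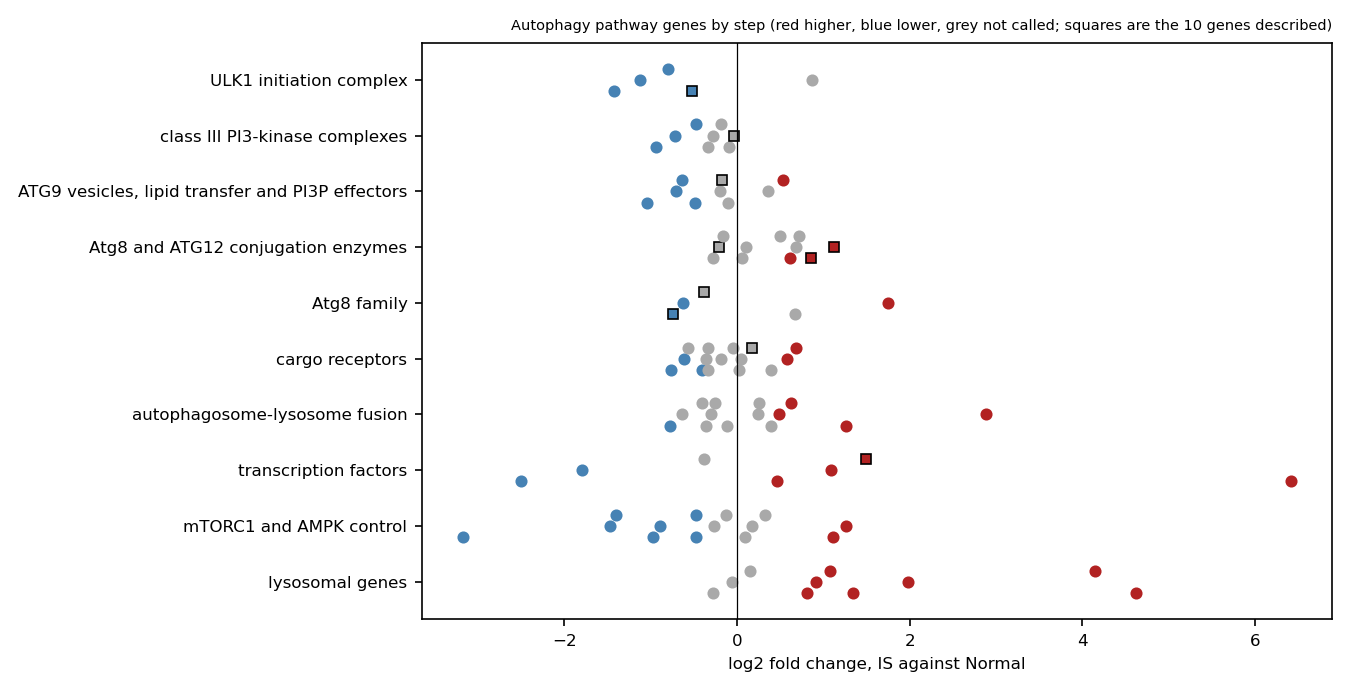
Log2 fold change in IS against Normal (x axis) of each tested gene, by step of the pathway (y axis), from edgeR's fit. Squares are the 10 genes described, circles the other genes, red and blue points passed the test as higher and lower, and grey points did not. The called genes of the initiation complex lay below 0, and those among the lysosomal genes lay above 0, up to 4.62 for Ctsd. The point farthest to the right is Tfec, with 1 count in each Normal rat, whose fitted value is not a measure of size.

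At the initiation step, 3 of the 4 genes beside Ulk1 fell in IS against Normal and 0 were called higher. The gene not called was Atg101, named after its value was seen. Its estimate was 0.87 ± 0.36 SE (adjusted p = 0.0636), and every IS rat was above both Normal rats. Ulk2, the close relative of Ulk1, fell by 1.42 ± 0.44 SE on the log2 scale (adjusted p = 0.0200), Rb1cc1, which encodes the scaffold FIP200, by 1.12 ± 0.36 (0.0258), and Atg13, the subunit that mTORC1 controls, by 0.80 ± 0.16 (0.00252). Of the 7 genes of the lipid kinase complexes beside Becn1, 3 fell and 0 rose. Pik3r4, the regulatory subunit, fell by 0.94 ± 0.21 (adjusted p = 0.00427), Atg14, the subunit of the autophagy-specific complex, by 0.71 ± 0.17 (0.00717), and Ambra1, a regulator of Beclin 1, by 0.48 ± 0.16 (0.0289). Of the 8 genes of ATG9 vesicles, lipid transfer and PI3P effectors beside Wipi1, 4 fell and 1 rose. Atg2b, a lipid transfer protein, fell by 1.04 ± 0.31 (adjusted p = 0.0182), Atg9a, the scramblase of ATG9 vesicles, by 0.70 ± 0.19 (0.0102), and Wipi2, the relative of Wipi1 that recruits ATG16L1, by 0.64 ± 0.21 (0.0262). The gene that rose was Vmp1, named after its value was seen, at 0.54 ± 0.18 (adjusted p = 0.0277). Of 20 alternative settings, 14 called Ulk2 and Ambra1 and 15 called Rb1cc1, Atg2b and Wipi2, each lost without Normal rat 3. Atg13 and Pik3r4 were called in 19, Atg14 in 18 and Atg9a in 17.

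Of the 8 conjugation genes beside Atg5, Atg7 and Atg16l1, 1 rose and 0 fell in IS against Normal. It was Atg16l2, the relative of Atg16l1, at 0.61 ± 0.23 SE (adjusted p = 0.0476), and 7 of 20 alternative settings called it. Of the 14 tested cargo receptors beside Sqstm1, 2 rose and 3 fell. Calcoco1, a receptor for endoplasmic reticulum and Golgi, fell by 0.77 ± 0.21 (adjusted p = 0.0124), and Bnip3, a mitochondrial receptor, by 0.62 ± 0.17 (0.0116). Tex264, a receptor for endoplasmic reticulum, rose by 0.69 ± 0.25 (0.0391), a call that 14 of 20 settings kept and that was lost without either Normal rat. Among 14 fusion genes 4 rose and 1 fell. Vamp8, a lysosomal SNARE, rose by 2.89 ± 0.63 (adjusted p = 0.00387) and Ykt6, a SNARE of autophagosomes, by 1.27 ± 0.18 (0.000385), while Epg5, a tether, fell by 0.77 ± 0.28 (0.0420). The change of Ykt6 was called in all 20 alternative settings and that of Epg5 in 10, being lost without either Normal rat, IS rat 2 or 3, IS-HA rat 1 or any IC rat (highest adjusted p 0.226).

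The other transcription factors and the control genes moved both ways in IS against Normal. Of the 6 factors beside Tfeb, 3 rose and 2 fell. Foxo1 and Foxo3, which also drive autophagy genes, fell by 2.50 ± 0.48 SE (adjusted p = 0.00193) and 1.79 ± 0.42 (0.00604). Tfec, a relative of Tfeb found mainly in myeloid cells, had 1 count in each Normal rat and 68, 56 and 50 in the IS rats. Its pooled ratio of IS to Normal counts, per count assigned, was 107 (95% exact interval 29.1 to 887, counting error only). Of the 14 genes of mTORC1 and AMPK control 2 rose and 7 fell, where 24.8% of all genes were higher and 24.2% lower. Prkaa2, a catalytic subunit of AMPK, fell by 3.17 ± 0.78 (adjusted p = 0.00746), Tsc1, an inhibitor of mTORC1, by 1.47 ± 0.38 (0.00944) and Rragd, a GTPase that activates it, by 1.40 ± 0.35 (0.00809). Prkaa2 had 102 and 247 counts in the Normal rats and 27, 7 and 2 in the IS rats, so its fold change is imprecise. IS rat 4 was under the floor of 3 counts. The call of Prkaa2 was lost without Normal rat 3 (highest adjusted p over all alternatives 0.0784).

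The lysosomal genes that changed all rose. Of 10 tested, 7 rose and 0 fell in IS against Normal, with a median log2 fold change of 1.00, where 24.8% of all genes rose. The aspartic protease gene Ctsd stood at 261 and 234 TPM in Normal and at 3980, 4174 and 9563 TPM in IS, and it rose by 4.62 ± 0.65 SE on the log2 scale (adjusted p = 0.000375). The cysteine protease gene Ctsb stood at 432 and 434 TPM in Normal and at 5953, 5824 and 10613 TPM in IS, a rise of 4.14 ± 0.49 (adjusted p = 0.000144). Hexa, which encodes a subunit of hexosaminidase A, rose by 1.98 ± 0.39 (adjusted p = 0.00221). In IC 4 of the 10 rose against Normal, where 13.0% of all genes were higher and 4.64% lower. In IS-HA 7 of the 10 rose against Normal, where 19.5% of all genes were higher and 12.1% lower. In both, 0 of the 10 fell. IS rat 4, the highest in both protease genes, also had the highest sum of microglia and macrophage markers (5733 TPM), and IS-HA rat 2 came next in all 3 (5199.5 TPM of Ctsd, 6095 of Ctsb and a sum of 5300). The part of those cells in the lysosomal rise was not tested.

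The make-up of the Atg8 family also differed between the groups. The 5 genes are Map1lc3a, Map1lc3b, Gabarap, Gabarapl1 and Gabarapl2. They summed to 1356 ± 26.4 TPM in Normal (SD, n = 2), 1434 ± 118 in IC, 1661 ± 98.2 in IS and 1637 ± 221 in IS-HA (n = 3 each). Mitochondrial genes took 31.5 to 35.2% of TPM in Normal and 17.4 to 20.3% in IS, which raises the TPM of other genes in IS. The part of this scaling in the sums was not tested. Gabarap, which encodes the founding GABARAP protein, stood at 187 and 196 TPM in Normal, 360, 434 and 372 in IC, 558, 570 and 759 in IS, and 423, 631 and 431 in IS-HA. It rose 3.35-fold in IS (log2 fold change 1.75 ± 0.32 SE, adjusted p = 0.00143) and 2.65-fold in IS-HA (1.41 ± 0.31, adjusted p = 0.00739), and had an estimate of 0.97 ± 0.31 in IC (adjusted p = 0.0503). Every one of the 20 alternative settings called it in IS. Gabarapl2 fell in IS by 0.62 ± 0.23 (adjusted p = 0.0448), a call that 9 of 20 settings kept and that was lost without either Normal rat, IS rat 3 or 4, IS-HA rat 3 or any IC rat (highest adjusted p 0.409). Map1lc3a had an estimate of 0.68 ± 0.37 (adjusted p = 0.151).

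As shares of the family's summed TPM, Gabarapl1 made up 48.5% ± 2.37 in Normal (SD, n = 2), 33.5% ± 3.64 in IC, 23.4% ± 6.40 in IS and 31.1% ± 6.14 in IS-HA (n = 3 each). Gabarap made up 14.1% ± 0.191 in Normal, 27.4% ± 5.21 in IC, 38.2% ± 8.88 in IS and 30.0% ± 3.01 in IS-HA. Gabarapl1 therefore held a larger share than Gabarap in both Normal rats and a smaller one in all 3 IS rats. The ratio of Gabarap to Gabarapl1 was 0.298 and 0.284 in the Normal rats, 0.652, 1.12 and 0.731 in IC, 1.26, 1.17 and 3.01 in IS, and 0.755, 1.37 and 0.897 in IS-HA. Rats above 1 were the 3 IS rats, IC rat 3 and IS-HA rat 2. Map1lc3b was 4.63% of the sum in Normal and between 2.86% and 3.37% on average in the hemorrhage groups. The part of the lower neuron and oligodendrocyte markers and of the higher microglia, macrophage and astrocyte markers in these shares was not tested.

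**Figure D5:**
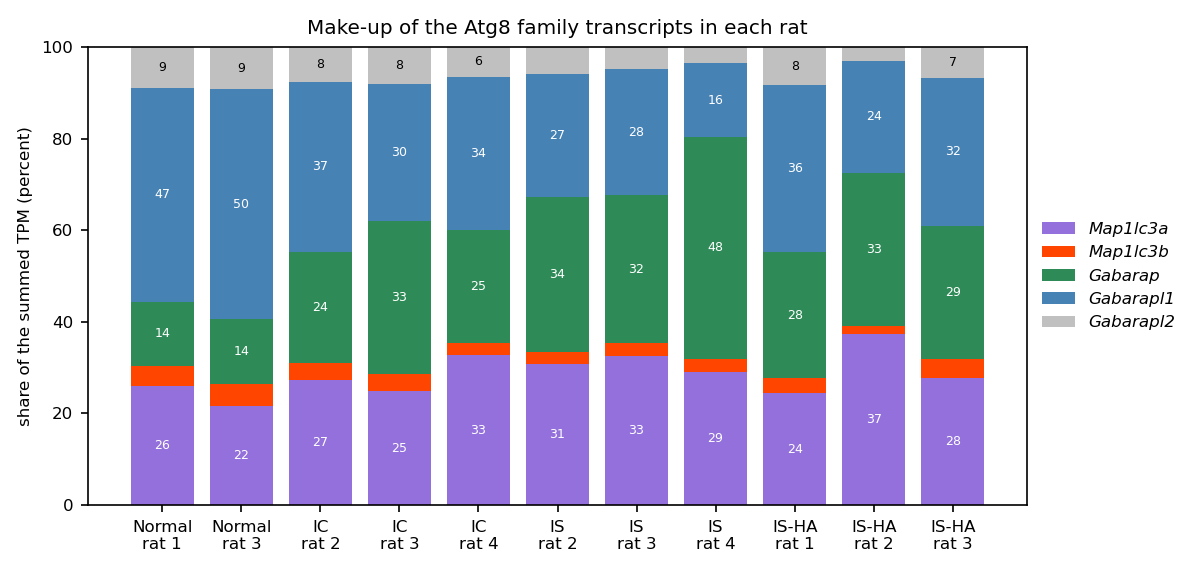
Share of the summed TPM of the 5 Atg8 genes held by each gene (y axis, percent) in each of the 11 rats (x axis), stacked to 100. Gabarapl1 was the largest share in the 2 Normal rats, at 46.8% and 50.1%, and Gabarap reached 48.4% in IS rat 4, where Gabarapl1 was 16.1%.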

How the data were processed

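Poly(A) RNA of the ipsilateral striatum was sequenced as paired-end reads of 150 bases, one library a rat. Per the submitters' processing notes, fastp 0.20.0, HISAT2 2.1.0, SAMtools 1.9 and featureCounts were used with build mRatBN7.2. The annotation version is not given in the sources used here. The authors deposited whole-number counts per gene, without normalization, and TPM, which they had scaled by gene length and to one sum a rat. Mitochondrial genes took 31.5 to 35.2% of TPM in Normal and 17.4 to 20.3% in IS, which raises the TPM of other genes in IS.

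Counts were filtered by filterByExpr, normalized by TMM and tested with the quasi-likelihood F test of edgeR 4.0.16 (R 4.3.3) in one fit over the 4 groups. The p-values were adjusted by Benjamini-Hochberg over 15742 genes and called under 0.05. Standard errors were approximated from each fold change and its F statistic. Alternatives used DESeq2 1.42.0, limma 3.58.1 with a pseudocount of 1 on TPM, and each rat left out. The methods were also run on simulated counts, with large changes of a small set of genes in IS and the same dispersion for every gene. Such counts are simpler than these data and do not vouch for the calls given here. Plots used matplotlib 3.10.9. A count of 3 was taken as the floor of detection, and intervals and floors cover counting error only. The members and lists were chosen with earlier results of these data known. Other genes were named as the up to 3 largest called changes per list in IS against Normal and all Atg8 genes.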

Additional observations from a re-analysis of the deposited data

How the results depend on the processing

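Of the 10 members, 5 were called in IS against Normal, and the count was 1 with the replicate block, 3 with limma on log2(TPM + 1), 2 with a fold cutoff of 1 on the log2 scale and 1 to 6 with 1 rat left out. In IC against Normal, where 0 were called, the counts were 3 with DESeq2's Wald test, 3 with only the 2 groups compared, 1 with limma on log2(TPM + 1), 3 with voom and 0 to 3 with 1 rat left out. In IS-HA against Normal, where 1 was called, the counts were 2 with DESeq2's size factors, 4 with its Wald test, 2 without a filter on counts, 0 with only the 2 groups, 0 with the replicate block, 2 with limma on log2(TPM + 1), 0 with the fold cutoff, 3 with voom and 0 to 3 with 1 rat left out. In IS against IC, where 0 were called, they were 1 with the Wald test, 1 with voom and 0 to 1 with 1 rat left out. In IS-HA against IS every alternative gave 0. Each count is to be read beside the number of all genes called under the same setting. In IS against Normal the replicate block called 1879 of 15742 genes higher and 908 lower. Limma on log2(TPM + 1) called 3900 and 2976. In IS-HA against Normal the Wald test called 3387 of 15742 genes higher and 2674 lower, and voom 3589 and 2919. There, only the 2 groups gave 1672 of 15727 genes higher and 750 lower, and the block 1752 and 664 of 15742. DESeq2's size factors gave 2900 and 2158 there, limma on log2(TPM + 1) 2999 and 1113, and no filter on counts 2917 and 1797 of 21867. In IC against Normal, only the 2 groups gave 2994 of 15790 higher and 2633 lower. Without IS-HA rat 2, which gave the 6 in IS against Normal, 4807 of 15897 genes were higher and 4646 lower. The number of all genes past the fold cutoff was not counted. The replicate block, a fit with the shared rat number as a term, uses more of the few degrees of freedom, and same-numbered rats are different animals, whose deviations from their group means correlated from -0.34 to 0.36 between IS and IC.

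Of the 88 other pathway genes, the 45 called in IS against Normal became 8 with the replicate block, 20 with the fold cutoff and 14 to 54 with 1 rat left out. The 8 in IC against Normal became 18 with the Wald test, 31 with only the 2 groups, 3 with the block, 4 with the fold cutoff, 33 with voom and 2 to 31 with 1 rat left out. The 25 in IS-HA against Normal became 9 with only the 2 groups, 9 with the block, 12 with the fold cutoff and 5 to 27 with 1 rat left out. In IS against IC, where 0 were called, the counts were 4 with the Wald test, 7 with voom and 0 to 11 with 1 rat left out, and in IS-HA against IS they were 1 with voom and 0 to 2. The highest counts in both came without IS-HA rat 2. The counts of the 88 genes are likewise to be read beside the number of all genes called under the same setting. In IC against Normal the Wald test called 25.4% of all genes in either direction and voom 39.5%. Only the 2 groups gave 2994 of 15790 higher and 2633 lower there, and the block 824 and 15 of 15742. In IS against IC the Wald test called 6.19%, voom 12% and the fit without IS-HA rat 2 14.1% of all genes. In IS-HA against IS voom called 2.73% and the fit without that rat 4.37%. The voom fit was chosen after seeing the data.

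Over 50 pairs of a member and a comparison, 15 changed sign under at least 1 alternative, each with an estimate within 1 standard error of 0. Among the fold changes given in the text these were Wipi1 in IS against Normal (0.023 with the replicate block) and Tfeb in IS-HA against IS (0.053 with the block, and from -0.86 to 0.067 with 1 rat left out, the highest without IS rat 4). The cause was not tested. With 2 Normal rats, every comparison with Normal rests on their spread being like that of the other groups, and Atg7, with at most 379 counts a rat, is the least precise in counting.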
